A study of Mus musculus with 4 samples.

Results

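Splicing factor and hnRNP genes were taken as the protein-coding genes whose symbols begin with Srsf, U2af, Sf3a, Sf3b, Snrp, Prpf or Hnrnp, 69 of the 21900 protein-coding genes in a RefSeq table of GRCm38. Open chromatin at these genes was read from ATAC-seq of sorted CD4+CD8+ double-positive (DP) thymocytes of C57BL/6 mice. KO mice were labelled Cd4-cre;CHAF1bfloxp/floxp and WT mice CHAF1bfloxp/floxp, so that both groups carried the floxed alleles and the KO mice alone carried Cre. Each group had 2 replicates, merged by the authors into 1 peak list (7645 KO and 15215 WT regions on mm10), so no value per replicate, no test between the groups and no p-value could be had. Cd4-cre is driven by Cd4 sequences, so that deletion by it starts around the DP stage, and the sources used here give neither ages nor numbers of mice. Chaf1b encodes a subunit of CAF-1, the chaperone that places histones H3 and H4 on newly copied DNA.

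Introns are removed by the spliceosome. The U1 and U2 small nuclear ribonucleoproteins (snRNPs) mark the ends of the intron with U2AF and the SF3A and SF3B complexes, the U4/U6.U5 tri-snRNP joins them, and the PRP proteins rearrange the assembly for catalysis. SR proteins (Srsf genes) mostly promote the use of exons, and heterogeneous nuclear ribonucleoproteins (hnRNPs) package nascent RNA and often oppose them. In T cells this machinery sets, among others, the exon choice of Ptprc, which encodes CD45.

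Most of these genes had an accessible region at a gene end, here a called region within 1000 bp of either annotated end of the gene, 5' or 3'. There were 33 genes with a KO region (47.8%, exact 95% interval 35.6 to 60.2), against 48 with a WT region (69.6%, 57.3 to 80.1). Over all protein-coding genes the shares were 21.1% in KO and 34.6% in WT, both below the intervals of the 69 genes. The order of KO and WT depended on the length of the lists: with the WT list limited to the length of the KO list, the 69 genes had 33 with a KO region and 28 with a WT region, beside 4624 and 4730 of all genes. Regions were in both lists at 32 genes, in WT only at 16, in KO only at 1 (Srsf2) and in neither list at 20 (over all genes, 64.8% were in neither). The 32 were 66.7% (51.6 to 79.6) of the genes with a WT region, an interval that holds the 59.4% found over all protein-coding genes. At 2 of the 32, Prpf18 and Prpf4b, the KO and WT regions did not overlap, so that 30 were open at the same place. Counted by region, a KO counterpart existed for 33 of the 59 in WT (55.9%, 42.4 to 68.8), beside 55.1% of all WT gene-end regions. A WT counterpart existed for 34 of the 39 in KO, beside 3913 of the 4095 KO gene-end regions of all genes.

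The KO list was shallower, and this touches each absence below. Background read density was 1.03 in KO and 1.37 in WT, so the KO list held 0.752 times the depth, and a region missing from it was not called there, which does not show a closed site. Fold enrichment, the authors' ratio of reads at the summit to local background, had a median of 6.21 (range 4.07 to 9.91) over the 33 genes in KO and 7.14 (4.22 to 14.9) over the 48 in WT, where all genes with a region had medians of 6.87 in KO and 7.24 in WT. DP identity was checked at 17 marker genes, of which 2 had a gene-end region in KO and 10 in WT, and 5 in KO and 14 in WT had a region anywhere in the gene. Of 5 natural killer markers 2 (Gzma and Prf1) had a gene-end region in each list. Of 6 B cell markers 0 had one in KO and 1 (Ebf1) in WT, and no myeloid, erythroid, stromal or epithelial marker had one. Counted anywhere in the gene, regions were at 1 B cell marker in KO and 2 in WT, at 0 myeloid markers in KO and 1 in WT, and at 0 erythroid markers in KO and 1 in WT. The part of other cell types in the results was not tested.

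**Figure D1:**
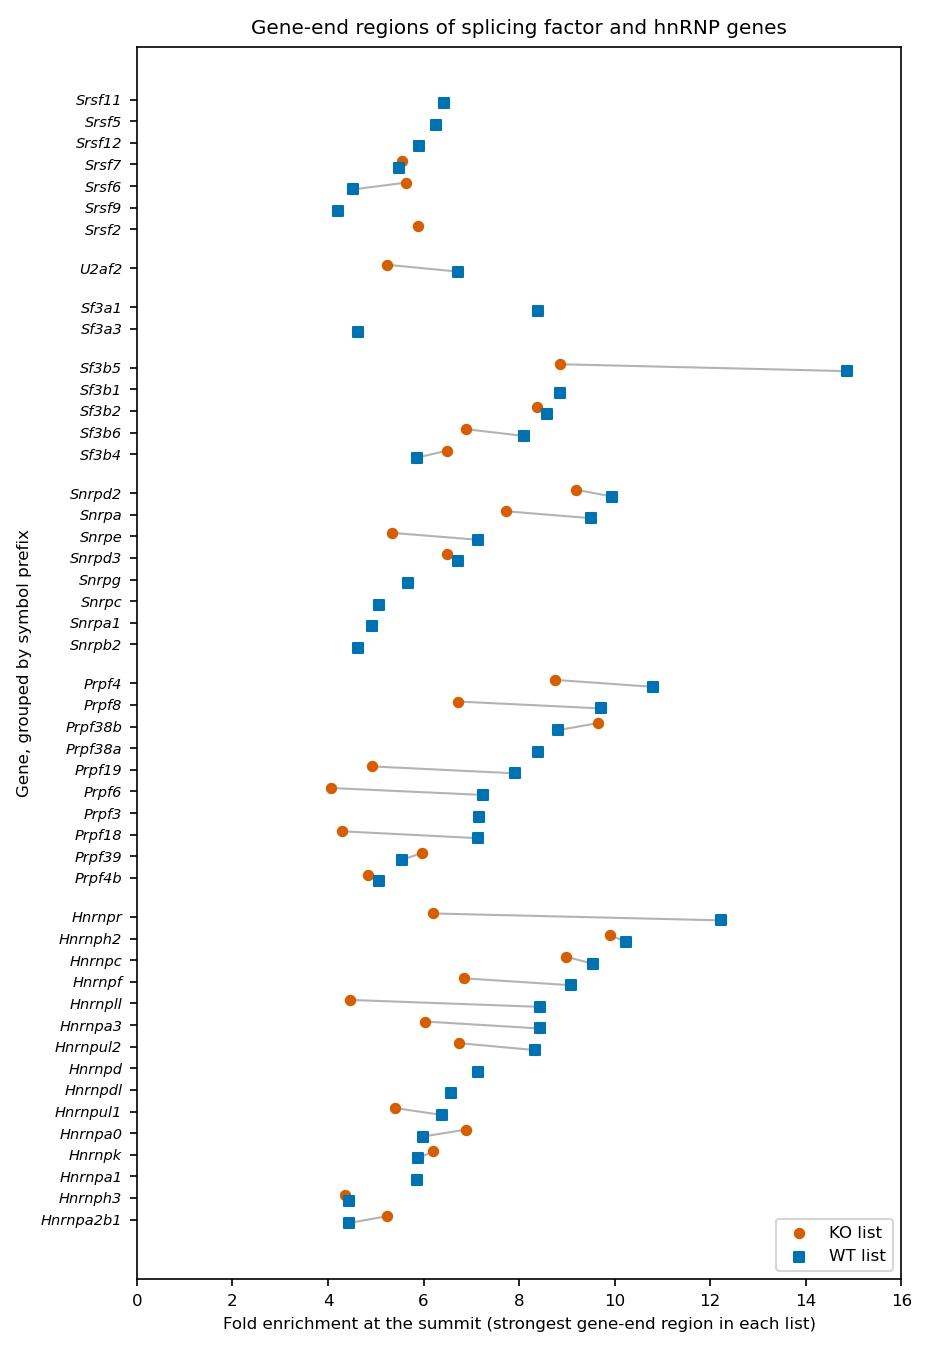
Fold enrichment at the summit of the strongest gene-end region of each gene, by symbol prefix, for the KO list (orange circles) and the WT list (blue squares), with a line where both lists had a region; 1 gene is not drawn. Values of the 2 lists rest on unlike depth. The widest gap between KO and WT values lies at Hnrnpr (6.19 and 12.2) and Sf3b5 (8.85 and 14.9).

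Strong WT regions mostly had a KO counterpart. Of 19 genes with a WT fold of 8 or more, 16 also had a KO region (84.2%, 60.4 to 96.6), and all protein-coding genes stood at 88.6%. Between 6 and 8 it was 7 of 12 (58.3%, 27.7 to 84.8), beside 53.6%. Among weak WT regions, with a fold under 6, 9 of 17 genes had one (52.9%, 27.8 to 77.0), where all genes stood at 25.5%. When the regions had to overlap, the count in this class was 8 of 17 (47.1%, beside 23.5% over all genes). With no overlap required, it was 4 among the 11 of these genes whose regions touched no other gene end (36.4%, beside 24.9% over all such genes). These bounds of fold were set with the values known.

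**Figure D2:**
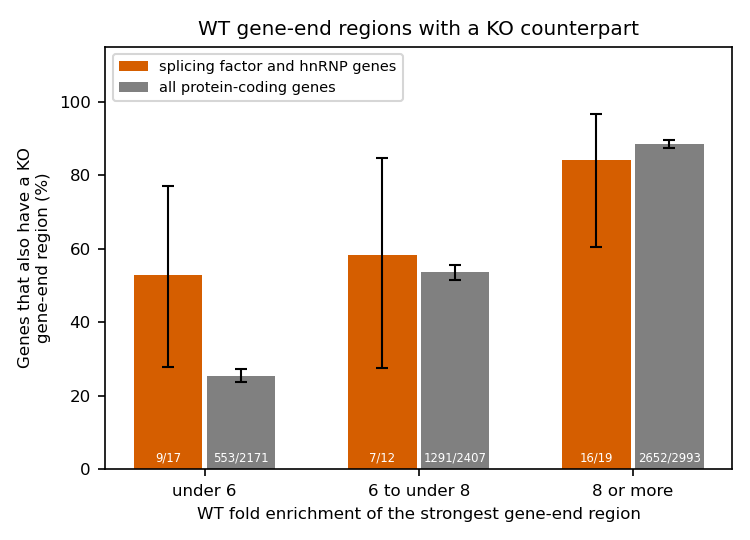
Share of genes with a WT gene-end region that also had a KO gene-end region, in 3 ranges of WT fold enrichment, for the splicing factor and hnRNP genes (orange) and all protein-coding genes (grey); bars carry exact 95% intervals and counts. The orange and grey bars differ most under a fold of 6, at 52.9% and 25.5%.

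Promoters of members of each class show which sequence the regions covered. They are taken from RefSeq on GRCm38.p6, run 5' to 3' along the gene from 250 bases before the start site to 50 bases from it on, and carry in capitals every match on either strand to CCGGAAG (ETS), GCGCATG (NRF1), AAGATGGCG (YY1), TGACG (CRE), GGGCGG (GC box), CCAAT and TATAAA. The first pair has the highest WT fold among genes in both lists with a promoter in the table, since Sf3b5 had none there. The next 3 have the highest WT fold among those in WT only, and the last is the gene in KO only.
Hnrnpr: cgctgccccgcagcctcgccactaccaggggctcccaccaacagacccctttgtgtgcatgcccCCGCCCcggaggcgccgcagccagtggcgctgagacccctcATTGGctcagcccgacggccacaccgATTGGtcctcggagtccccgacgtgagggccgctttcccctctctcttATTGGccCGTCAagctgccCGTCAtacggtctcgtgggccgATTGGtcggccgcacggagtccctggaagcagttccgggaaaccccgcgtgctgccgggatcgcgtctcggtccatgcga
Prpf4: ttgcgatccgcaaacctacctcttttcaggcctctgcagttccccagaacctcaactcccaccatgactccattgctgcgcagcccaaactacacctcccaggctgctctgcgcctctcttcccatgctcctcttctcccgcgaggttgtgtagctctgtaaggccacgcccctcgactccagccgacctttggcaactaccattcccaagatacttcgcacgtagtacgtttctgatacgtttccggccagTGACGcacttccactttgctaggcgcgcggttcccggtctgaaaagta
Sf3b1: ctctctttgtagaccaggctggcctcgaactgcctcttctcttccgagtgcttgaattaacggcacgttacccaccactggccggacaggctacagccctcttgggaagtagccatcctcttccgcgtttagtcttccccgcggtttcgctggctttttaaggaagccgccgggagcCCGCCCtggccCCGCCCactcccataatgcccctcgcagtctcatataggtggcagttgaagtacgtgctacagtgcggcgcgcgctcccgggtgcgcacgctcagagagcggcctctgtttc
Prpf38a: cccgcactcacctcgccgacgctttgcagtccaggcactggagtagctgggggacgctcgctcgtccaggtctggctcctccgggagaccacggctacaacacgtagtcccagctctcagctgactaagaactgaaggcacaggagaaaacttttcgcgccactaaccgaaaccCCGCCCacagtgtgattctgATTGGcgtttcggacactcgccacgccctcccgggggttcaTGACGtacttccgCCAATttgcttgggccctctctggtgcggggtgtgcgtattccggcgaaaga
Sf3a1: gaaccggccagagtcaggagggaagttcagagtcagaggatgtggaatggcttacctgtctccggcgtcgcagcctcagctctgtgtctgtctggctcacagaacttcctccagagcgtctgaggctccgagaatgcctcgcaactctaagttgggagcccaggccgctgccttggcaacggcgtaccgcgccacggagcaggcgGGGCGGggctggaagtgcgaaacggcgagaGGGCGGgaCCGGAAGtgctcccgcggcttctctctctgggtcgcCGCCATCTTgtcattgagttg
Srsf2: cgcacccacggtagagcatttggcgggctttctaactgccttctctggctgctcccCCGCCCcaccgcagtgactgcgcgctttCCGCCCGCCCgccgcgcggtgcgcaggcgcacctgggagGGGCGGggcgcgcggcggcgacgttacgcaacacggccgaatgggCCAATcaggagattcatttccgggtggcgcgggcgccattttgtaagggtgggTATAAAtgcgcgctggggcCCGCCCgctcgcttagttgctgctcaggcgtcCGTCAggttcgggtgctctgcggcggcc
The Hnrnpr promoter (chr4:136310692-136310991, plus strand) lay in open sequence for 208 of its 300 bases in KO and 300 in WT, and that of Prpf4 (chr4:62408533-62408832, plus strand) for 286 in KO and 300 in WT. In WT, open regions covered 170 bases at Sf3b1 (chr1:55027429-55027728, minus strand), 265 at Prpf38a (chr4:108579287-108579586, minus strand) and 300 at Sf3a1 (chr11:4160104-4160403, plus strand), against 0 in KO at each. The Srsf2 promoter (chr11:116853045-116853344, minus strand) held 0 called bases in either list. The KO region of Srsf2 lay further upstream, its summit 112 bp beyond the annotated 5' end of the gene. The start site of this promoter lies inside the gene.

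Among the snRNP proteins, 3 of the 4 that belong to U1 or U2 alone were called in WT only. The 1 in both lists was 25.0% (0.631 to 80.6) of the 4 with a WT region, an interval that holds the 59.4% over all genes. Of the 8 of the Sm ring, 3 were in both lists, 1 in WT only and 4 in neither. Snrpa, which encodes the U1 protein that binds stem-loop II, had KO fold 7.72 (20 reads) and WT fold 9.50 (33 reads), with a second KO region inside the gene end (27195698 to 27195904 on chromosome 7, 14 reads) that had no WT counterpart. The other 3 had no KO region. They were Snrpc, encoding the U1 protein at the 5' splice site (WT fold 5.06, 11 reads), Snrpa1 (4.92, 11 reads) and Snrpb2 (4.64, 10 reads), both of U2. These 3 WT values are low, in the range where 25.5% of all genes had a KO region. Of the 8 genes of the Sm ring, which encircles the snRNA, 3 had a KO region and 4 a WT region. Snrpd2 was strong in both lists, with 26 KO and 35 WT reads (fold 9.18 and 9.94), Snrpe had 10 and 16 reads, and Snrpd3 16 and 19 reads. Snrpg (WT fold 5.68, 14 reads) was in WT only, and Snrpb, Snrpd1, Snrpf and the imprinted, mostly neuronal Snrpn were in neither list.

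SF3A and SF3B hold U2 at the branch point. Of the 3 SF3A genes none had a KO region and 2 had a WT region, Sf3a1 (fold 8.39, 22 reads) and Sf3a3 (4.64, 10 reads). Of the 6 SF3B genes, 4 had a KO region and 5 a WT region. Among genes with a WT region, the interval of the share with a KO region was 0 to 84.2% for SF3A. For SF3B it was 28.4 to 99.5%, and both hold the 59.4% over all genes. Sf3b5 (chromosome 10, 13008450 to 13009183), a small subunit of the SF3B core, had the highest WT fold of all 69 genes, with 19 KO and 43 WT reads. Sf3b2 had 16 and 21 reads, Sf3b6 14 and 23, and Sf3b4 16 and 16, so that the KO values at these 3 genes lay within their narrow range from 14 to 16. Sf3b1, the large scaffold that clamps the branch-point helix, had a WT region over its start site (chromosome 1, 55027327 to 55027598, fold 8.85, 20 reads) and its nearest KO region was 25.0 kb away. It had the highest WT fold among the 16 genes in WT only. Sf3b3 and Sf3a2 were in neither list.

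U2AF recognises the 3' splice site as a dimer. U2af2, the large subunit that binds the polypyrimidine tract, had 2 KO and 3 WT regions, the strongest with 17 KO and 27 WT reads at the low-coordinate end of the gene, which Ccdc106 shares, and a weaker pair with 9 KO and 16 WT reads at the other end, which Epn1 shares. U2af1, the small subunit, and its relative U2af1l4 were in neither list. The region nearest U2af1 was 76.5 kb away in each list.

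Most Prpf genes had a region, 9 of 13 in KO and 11 in WT, where all protein-coding genes had 21.1% and 34.6%. Of the 11, 9 were in both lists (81.8%, 48.2 to 97.7), an interval that holds the 59.4% over all genes. Prpf8, the core of the catalytic centre, had 15 KO and 27 WT reads at its start site. Prpf4, of the tri-snRNP, had 23 and 34 reads, and Prpf6, which bridges the tri-snRNP, 9 and 21. Prpf19, the ubiquitin ligase of the complex that activates the spliceosome, had 9 KO and 21 WT reads. Each of these 4 had fewer KO than WT reads. Prpf38b, of the precatalytic complex, had a pair of regions in each list, 26 and 29 reads with summits 527 bp (KO) and 519 bp (WT) downstream of the start site and 19 and 26 reads beside the start site. Prpf39 had 12 and 15 reads. At Prpf4b, a kinase of splicing proteins, the KO region (11 reads) had its summit at -13 bp from the start site and the WT region (14 reads) at -1149 bp. That start site lies inside the annotated gene, and from the gene's 5' end the summits were at 696 bp (KO) and -440 bp (WT). At Prpf18, a second-step factor, the KO region (8 reads, 4651658 to 4651983 on chromosome 2) and the WT region (18 reads, 4652031 to 4652341) lay side by side. Called in WT only were Prpf38a (fold 8.40, 20 reads) and Prpf3 (7.17, 16 reads), a protein of U4/U6. Prpf31 and Prpf40b were in neither list.

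Of the 11 SR protein genes, 3 had a KO region (27.3%, 6.02 to 61.0) and 6 a WT region (54.5%, 23.4 to 83.3), intervals that hold the shares over all genes and over the 69 genes, and 2 of the 6 were in both lists. These were Srsf6, with 14 KO and 12 WT reads, and Srsf7, with 13 and 12. The KO share of KO plus WT reads was 53.8% (33.4 to 73.4) at Srsf6 and 52.0% (31.3 to 72.2) at Srsf7. Both intervals hold the 42.9% that the depth of the lists gives. At Srsf7 the local background was 1.52 in KO and 1.37 in WT. In WT only were Srsf11 (fold 6.42, 18 reads), Srsf5 (6.25, 22 reads), Srsf12 (5.90, 13 reads) and Srsf9 (4.22, 9 reads). Srsf2, which binds exon enhancers and controls its own transcript, had a KO region of 13 reads (fold 5.88, chromosome 11, 116853679 to 116853878) and no WT region at its ends. The KO summit was at -693 bp from the start site used, which lies inside the annotated gene, and 112 bp beyond the gene's 5' end. KO only held 0.584% of all protein-coding genes, and 13 reads is a low number. Srsf1, Srsf3, Srsf4 and Srsf10 were in neither list. The highest WT fold of the 6 genes, 6.42, was below the median of all 48 genes, 7.14.

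The hnRNP genes had 12 of 21 in KO and 15 in WT, where all protein-coding genes had 21.1% and 34.6%. Of the 15, 12 were in both lists (80.0%, 51.9 to 95.7), an interval that holds the 59.4% over all genes. Hnrnpr, an RNA-binding relative of Syncrip, had 12 KO and 33 WT reads over its start site. Hnrnpll, a regulator of Ptprc exon choice in lymphocytes, had 9 KO and 26 WT reads. These were the lowest KO shares of reads among the genes. Nearly even were Hnrnpk, a poly(C)-binding protein, with 17 KO and 19 WT reads, and Hnrnpa0, with 18 and 21. Hnrnph2, a G-run binder on the X chromosome, had 20 and 25, Hnrnpc, which binds uridine tracts, 20 and 32, Hnrnpa3 17 and 27, and Hnrnpf 15 and 29. Region bounds differed at the SAF-A relatives. Hnrnpul2 had 2 KO regions of 21 and 15 reads over 1 WT region of 690 bp and 26 reads, and the KO region of Hnrnpul1 (18 reads) touched 2 WT regions of 22 and 16 reads. Hnrnph3 was weak, with 9 and 11 reads. At Hnrnpa2b1 the KO list had 2 regions, 1 over the start site with 9 reads, where WT had 13, and a stronger one of 12 reads at -759 bp (51470525 to 51470724 on chromosome 6) with no WT counterpart. In WT only were Hnrnpd (AUF1, fold 7.14, 17 reads), its neighbour and relative Hnrnpdl (6.58, 29 reads) and Hnrnpa1 (5.87, 24 reads), which binds exon silencers. Hnrnpu, Hnrnpl, Hnrnpm, Hnrnpab, Hnrnph1 and Hnrnpa1l2-ps2, related to Hnrnpa1 by name, were in neither list.

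Many of these regions were also within 1000 bp of an end of a neighbouring gene. At 22 of the 48 genes with a WT region (45.8%) a region was also at the end of another protein-coding gene, beside 30.4% over all genes, and at 10 of the 15 hnRNP genes (66.7%). Hnrnpa2b1 shared its end with Cbx3 and Hnrnpa1 with Cbx5, genes of the heterochromatin proteins HP1 gamma and HP1 alpha. Hnrnpc had Rpgrip1, Hnrnpk had Rmi1, Hnrnph2 had Gla, Prpf4 had Cdc26 and Srsf7 had Gemin6 at the same place. Accessibility there cannot be given to 1 of the 2 genes. Of the 22 genes, 17 also had a KO region (77.3%, 54.6 to 92.2), and of the 26 with no shared WT region 15 (57.7%, 36.9 to 76.6). Over all genes these shares were 61.7% and 58.4%. There were 6 of 33 genes with 2 or more KO regions and 8 of 48 with 2 or more WT regions, counts with no share over all genes beside them. Some genes in both lists had a further WT gene-end region with no KO counterpart. At the 5' end, near the region in both lists, these were at Sf3b2 (11 reads) and Snrpd3 (16 reads). U2af2 had one of 21 reads near its strongest region. At the opposite, 3' end they were at Prpf8 (14 reads, beside Rilp), Sf3b2 (14 reads, beside Pacs1) and Snrpd3 (13 reads).

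Reads at regions called in both lists were compared as the KO share of KO plus WT summit reads, for which the ratio of background densities gives 42.9%. Over 31 regions with a single counterpart, KO held 492 of the 1250 reads (39.4%, 36.6 to 42.1), against 38.5% (38.2 to 38.7) over 3779 gene-end regions of all genes. The interval of the genes holds the value of all gene ends, and both values lay below 42.9%. That share depends on the background used: the median ratio of KO to WT local background was 0.716 at these regions and 0.674 at all gene ends, below the 0.752 of the lists. At 20 regions the KO share was under 42.9% and at 11 above it, 35.5% of the regions, beside 24.4% of all gene-end regions. Over all genes the part above 42.9% fell with the summed reads of a region. It was 66.4% under 25 reads and 12.8% from 60 to under 100, a class with 3 of the 31 regions and 686 of the 3779. From 25 to under 40 reads it was 57.1% of 14 regions, beside 33.8% over all genes. From 40 to under 60 it was 16.7% of 12, beside 16.1%. The contrast was not tested. Low shares were found at Hnrnpll (25.7%, 12.5 to 43.3), Hnrnpr (26.7%, 14.6 to 41.9) and Prpf19 and Prpf6 (each 30.0%, 14.7 to 49.4). The highest were at Srsf6 (53.8%, 33.4 to 73.4), Srsf7 (52.0%, 31.3 to 72.2), Sf3b4 (50.0%, 31.9 to 68.1), Prpf38b (47.3%, 33.7 to 61.2) and Hnrnpk (47.2%, 30.4 to 64.5). Of the 31 intervals, 30 held the depth share and that of Hnrnpr lay below it. The Hnrnpr interval does hold the 38.5% over all gene-end regions, and the ratio of KO to WT local background there was 0.618. The 31 intervals are not adjusted for their number and cover counting error only. Only regions strong enough to be called in KO could enter.

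**Figure D3:**
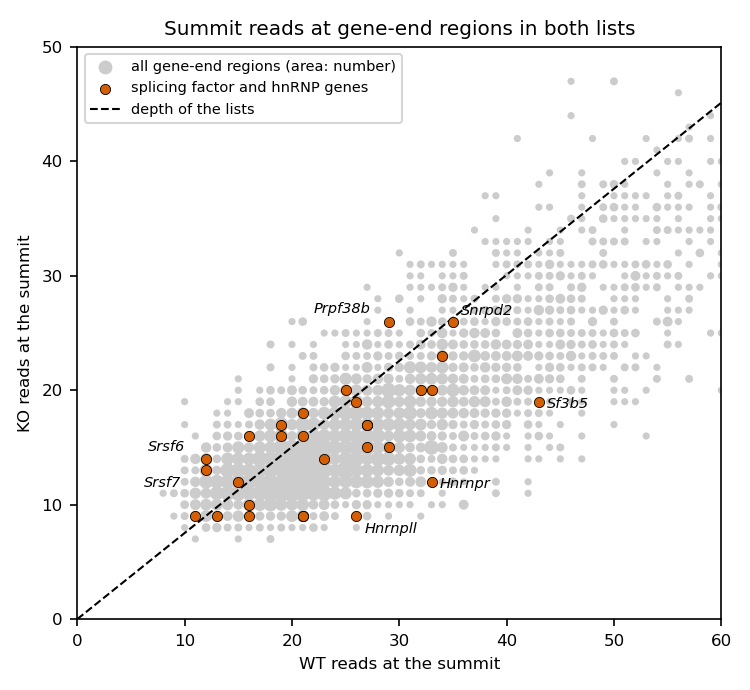
KO reads against WT reads at the summits of gene-end regions with a single counterpart, for the splicing factor and hnRNP genes (orange, 1 gene not drawn) and all genes (grey, area by number of regions; 88 regions beyond 50 KO or 60 WT reads are outside the axes). The dashed line is the depth ratio of 0.752; Hnrnpr (12 KO, 33 WT) and Hnrnpll (9 KO, 26 WT) lie furthest below it in KO share and Srsf6 (14 KO, 12 WT) furthest above.

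Start sites were given for 60 of the 69 genes. The summit of the strongest region lay upstream of the nearest start site in 23 of 26 genes in KO (88.5%) and in 34 of 41 in WT (82.9%), beside 75.3% and 70.9% over all genes. The median position was -72.5 bp in KO and -60.0 bp in WT, and 18 KO and 27 WT summits were within 150 bp. In regions with a single counterpart the KO and WT summits were a median of 27.0 bp apart, at most 138 bp, beside 30.0 bp at all gene ends. The summit of the strongest region lay further upstream of the start site at several genes. Among them were Snrpd3, at -574 bp in KO and -623 bp in WT, and Snrpd2, at -483 bp in KO and -412 bp in WT. Others were Hnrnpa0, at -409 bp in KO and -382 bp in WT, and Hnrnpk, at -426 bp in KO and -417 bp in WT. The start sites of Snrpd2 and Hnrnpk lie inside the annotated genes, and both Hnrnpk summits were inside the gene too.

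**Figure D4:**
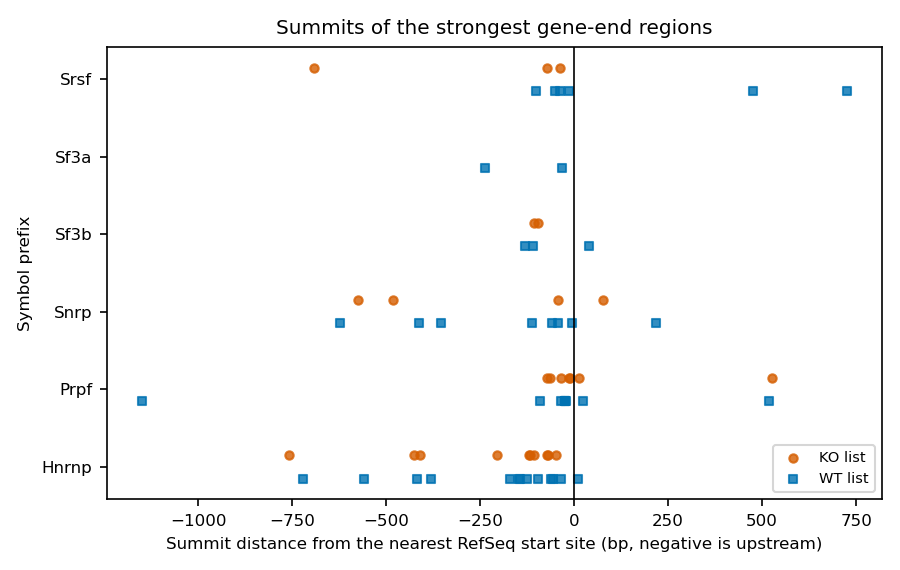
Distance of the strongest region's summit from the nearest RefSeq start site, by symbol prefix, in KO (orange circles) and WT (blue squares), for genes with a start site; U2af genes with a region had none given. Most summits lie within 150 bp, and the WT region of Prpf4b (-1149 bp) is the most distant.

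The 20 genes in neither list included broadly expressed splicing regulators, among them Srsf1, Srsf3, Hnrnpu, Hnrnpl, Hnrnph1, Hnrnpm, Hnrnpab and U2af1. The nearest region was a median of 52.8 kb away in KO and 15.6 kb in WT. For 2 of them a region lay at a start site inside the gene, outside the window. Hnrnpu had a KO region there (11 reads, fold 4.23, chromosome 1, 178337601 to 178337800) and Hnrnpl a WT region (17 reads, fold 4.95, chromosome 7, 28810583 to 28810971). Their promoters were not poor in CpG. The ratio of observed to expected CpG over the 300 bases had a median of 1.06 in the 18 genes with a promoter sequence, above 0.75 in 16 of them, beside 0.896 in the genes called in both lists and 0.889 in those in WT only. All protein-coding genes without a gene-end region had a median of 0.333, and those in WT only 0.787. The exceptions were Snrpn (0.132) and Hnrnpa1l2-ps2 (0.208).

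**Figure D5:**
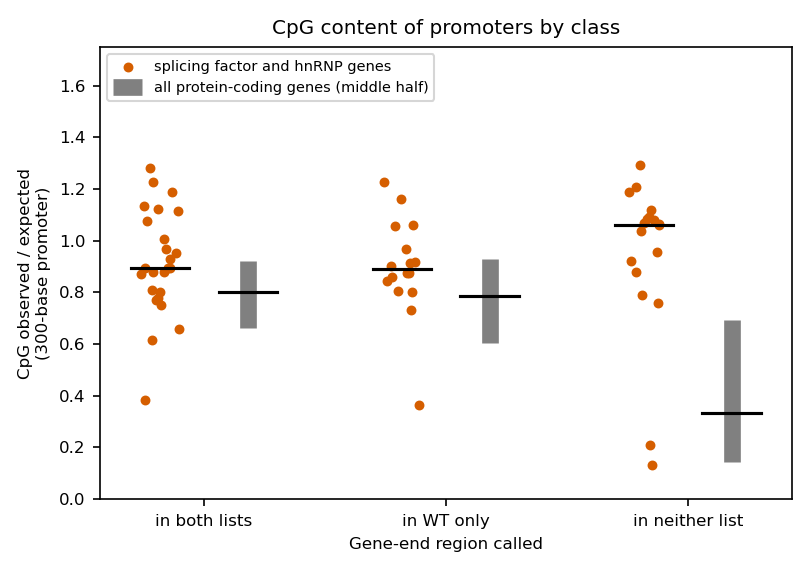
Observed over expected CpG in the 300-base promoter by whether a gene-end region was called, for splicing factor and hnRNP genes (orange points, line at the median) and all protein-coding genes (grey bar from the lower to the upper quartile, line at the median). In neither list the medians are 1.06 and 0.333; Srsf2, the gene in KO only, is not drawn.

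CCAAT on either strand was found in 13 of 25 promoters of genes in both lists (52.0%), 3 of 16 in WT only (18.8%, 4.05 to 45.6) and 13 of 18 in neither list (72.2%, 46.5 to 90.3), where all protein-coding genes had 51.4%, 33.9% and 36.3%. The Hnrnpr promoter carried 4 such matches, all on the opposite strand. The ETS letters were in 19 of 60 promoters (31.7%, 20.3 to 45.0), against 11.9% of all promoters and 21.5% of those of genes with a WT region. In Sf3a1 it ended next to the start site, from -7 to -1, with the YY1 letters in the transcribed part, from 29 to 37, counting the start site as 0. The CRE letters were in 51.7% (23.8% of all, 36.0% of those with a WT region) and the GC box in 65.0% (46.3% and 68.4%). A TATA box was in 7 of 60 (11.7%, 13.3% of all promoters), of which 5 were among the 18 genes in neither list (27.8%, 9.69 to 53.5, beside 17.4% of all genes in neither list). The NRF1 letters were in 4 and the YY1 letters in 2. A match does not show a bound factor.

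A list of 81 other genes of the spliceosome and its regulators, outside the symbol rule, was also read. In it 29 genes had a KO region (35.8%, 25.4 to 47.2) and 49 a WT region (60.5%, 49.0 to 71.2). Over all protein-coding genes these shares were 21.1% and 34.6%, both below the intervals. All 29 were also in WT, 59.2% (44.2 to 73.0) of the 49, beside 59.4% over all genes. Among those in both lists, the 5 with the highest WT fold were Pcbp2, a poly(C)-binding protein, with 28 KO and 40 WT reads, Taf15 with 13 and 34, Snrnp25, of the minor spliceosome, with 27 and 37, Zrsr2, which reads the 3' splice site of minor introns, with 14 and 28, and Plrg1, a partner of Prpf19, with 24 and 30. In WT only the highest folds were at Aqr, an intron-binding helicase (8.78), Cdc40 (7.67), Ddx23 (7.59), a tri-snRNP helicase, Celf1 (7.02) and Crnkl1 (6.94). None of the 81 was in KO only (0.584% of all protein-coding genes), and 32 were in neither list (64.8% of all protein-coding genes).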

How the data were processed

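ATAC-seq regions of DP thymocytes were deposited as 1 list per group, made from both replicates per the labels. MACS2 2.1.4, Bowtie2, Trim Galore, deepTools 3.4.1, Picard, FastQC and GATK, with the mm10 build, were used per the submitters' processing notes; their order and settings, any read shift for the transposase and any duplicate removal are not given in the sources used here. The authors deposited for each region a score (10 times the -log10 q), a fold enrichment ratio at the summit, and -log10 p and q. Values other than the score were used.

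Summit reads were solved from the deposited fold, (reads + 1) / (background + 1), and the -log10 p as a Poisson tail; the most frequent background gave relative depth, and the solver and overlaps were tested on simulated data. Genes came from RefSeq (GRCm38.p6), regions were matched at 1 bp or more, and shares carry exact Clopper-Pearson 95% intervals for counting error only. Library totals were not used. The members, lists and fold ranges were chosen with earlier results of these data known. The rule named genes called in 1 list or in neither, the 10 highest and 5 lowest WT folds and the 5 highest and 5 lowest KO read shares among those in both, and genes with 2 or more WT regions; the remaining members were named after their values were seen, and 1 gene is counted but not reported here. Computation used scipy 1.17.1, pandas 2.3.3 and numpy 2.4.6 in Python 3.11.15, with figures from matplotlib 3.10.9.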

Additional observations from a re-analysis of the deposited data

How the results depend on the processing

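Of 48 values recomputed under other settings, 39 stayed within the interval or within 1.5 times the reported value. With a -log10 q of at least 10, 10 of 27 genes with a WT region had a KO region (37.0%, beside 41.5% over all genes), with 10 genes in KO and 27 in WT, 37.9% of WT regions had a KO region, and other spliceosome genes stood at 36.0%; fewer regions pass this threshold by construction. With the WT list limited to the length of the KO list, 33 genes had a KO region and 28 a WT region, which turns the order of the lists round (all genes 4624 and 4730), and 76.7% of WT regions had a KO region (76.8% over all genes). Leaving out genes whose region lies at another gene end left 16 genes in KO and 26 in WT. The overlap settings do not bear on the numbers of genes with a region in 1 list. Requiring the regions of a gene to overlap, chosen after seeing the data, gave 62.5%, beside 58.6% over all genes. No paired analysis was possible because each list merges both replicates, and leaving out a replicate was not possible for the same reason. The weakest of the strongest regions at the genes in both lists had 8 KO and 11 WT reads, so differences at such sites were not resolved, and the spread between mice is unknown.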

Other observations

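Some of the genes also had regions inside the gene, away from the ends. In KO 4 of the 69 genes had 1 each, and in WT 8 had 11 in all. No share over all genes stands beside these counts, and the KO list was the shorter one (7645 against 15215 regions). Hnrnpa1, whose gene-end region was called in WT only, had an internal region in both lists, with 14 KO reads (chromosome 15, 103244292 to 103244590) and 17 WT reads (103244278 to 103244477). Snrpd3 had an internal region of 13 KO and 21 WT reads (75531776 to 75531975 in KO on chromosome 10). Hnrnpf had 3 internal WT regions of 19, 17 and 22 reads, with summits at -49, -15 and -365 bp from its other RefSeq start sites, and none in KO. Those of 19 and 17 reads were also at an end of another protein-coding gene, 4933440N22Rik. Srsf11 had 2 internal WT regions, of 17 and 15 reads, beside its second start site. Hnrnpk had an internal KO region of 16 reads at -77 bp from its start site with no WT counterpart, where both lists had the other region further upstream. This internal region was also at an end of Rmi1.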
